A study of Mus musculus with 3 samples.

Results

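The secreted Wnt antagonists of the Dkk and Sfrp families, together with *Wif1*, were described in the stromal cells of day 5 implants. Taken by symbol from a table of 31053 genes, the 9 members were *Dkk1*, *Dkk2*, *Dkk3*, *Sfrp1*, *Sfrp2*, *Sfrp4*, *Sfrp5*, *Frzb* and *Wif1*. The genes were chosen with their levels in these libraries already known, so the values are a description and no test was run on them. Single cells were measured by droplet RNA sequencing in 1 library for each of 3 conditions, all from CD-1 female mice of 6 to 8 weeks, an outbred stock. The Matrigel-only mice carried subcutaneous implants of Matrigel, a basement membrane gel, and were given nothing by mouth. The Vehicle mice carried Matrigel with rhBMP2, recombinant human bone morphogenetic protein 2, which induces ectopic cartilage and bone, and received corn oil with DMSO. The Palo mice carried the same rhBMP2 implants and received palovarotene, a retinoid agonist, at 4 mg/kg. Vehicle and Matrigel-only therefore differed both in rhBMP2 and in the oral vehicle, which cannot be told apart. Each library held the cells of a whole group, so no value had a replicate check.

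Wnt ligands are secreted proteins that bind Frizzled receptors and, in the canonical branch, the co-receptors Lrp5 and Lrp6, after which β-catenin is stabilized and acts with factors of the TCF/LEF family. Sfrp proteins and Frzb carry a cysteine-rich domain like that of Frizzled and bind Wnt ligands outside the cell, as Wif1 does through another domain. Dkk1 and Dkk2 bind Lrp5 and Lrp6 instead, with Kremen proteins as partners, while Dkk3 is a divergent member of its family that does not share this mode of action clearly. *Frzb* was first known as a gene of developing cartilage, and canonical Wnt signalling restrains chondrocyte differentiation of mesenchymal cells in the limb.

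A cell counted as stromal when at least 1% of its unique molecular identifiers (UMIs, counts of captured RNA molecules) came from *Col1a1*, *Col1a2*, *Col3a1*, *Dcn* and *Lum*, genes of fibrous matrix. In Matrigel-only 2085 cells (23.9% of those that passed the study's limits) were stromal, in Vehicle 1373 (25.1%) and in Palo 1184 (16.2%). Their median depth was 9082, 17114 and 12955 UMIs. A level is given in CPM, the UMIs of a gene divided by all UMIs of the same cells and scaled to 1000000, with an exact Poisson 95% interval. A share of cells was computed after each cell was thinned to 3000 UMIs, with an exact binomial 95% interval, and left out 202, 69 and 53 shallower cells. All such intervals cover counting error only. The 7 stromal markers, which include the 5 genes of the rule, summed to between 53763 and 85995 CPM in these cells. In all other cells they summed to between 358 and 631 CPM. That gap is largely set by the rule and is no check on it. Library pairs shared between 11 and 21 barcodes, of which 1 was stromal in both.

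Few cells lay near the limit of 1%. With 1 to 2% of UMIs from the stromal genes there were 38 Matrigel-only, 99 Vehicle and 8 Palo cells, and just below it, from 0.5 to 1%, there were 56, 52 and 10. The Vehicle cells just inside held *Frzb* at 219 CPM and *Sfrp4* at 22.6 CPM, and those just outside held *Frzb* at 133 CPM and no *Sfrp4* UMI. Cells just outside were shallow, with a median of 722 UMIs in Vehicle and 1068 in Matrigel-only.

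Gene positions were taken from GENCODE vM21, which is on mm10, the build of the deposited counts. *Dkk2* lies on the plus strand at chr3:132085292-132180304 and *Sfrp2* on the same strand at chr3:83766321-83774316. *Frzb* lies on the minus strand at chr2:80411970-80447625 and *Sfrp4* on the plus strand at chr13:19623104-19632994. *Sfrp1* occupies chr8:23411502-23449632 on the plus strand and *Dkk3* chr7:112116017-112159057 on the minus strand. The antisense gene *Gm26771* overlaps *Sfrp2* on the other strand, and whether strand was used in counting is not given in the sources used here, so reads of the pair may not be told apart.

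The 250 bases before the RefSeq start of *Dkk2* and *Sfrp2* (GRCm38.p6) are shown because these were the members whose level was lower in Vehicle than in both other libraries and at least 2-fold higher in Palo than in Vehicle. Capitals mark matches, on either strand, to any of 7 short motifs. The core searched for TCF/LEF factors was CTTTGA and that for nuclear receptors was AGGTCA. SOX factors were given the core ACAAAG, RUNX factors the core TGTGGT and SMAD1/5 the core GGCGCC. The TATA box was written as TATAAA and the GC box as GGGCGG.
Dkk2, chr3:132085042-132085291, plus strand: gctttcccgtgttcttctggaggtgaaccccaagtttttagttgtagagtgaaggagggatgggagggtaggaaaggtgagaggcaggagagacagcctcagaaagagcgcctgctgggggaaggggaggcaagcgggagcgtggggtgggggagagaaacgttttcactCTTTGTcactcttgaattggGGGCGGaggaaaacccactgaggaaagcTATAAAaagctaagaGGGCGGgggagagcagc
Sfrp2, chr3:83766071-83766320, plus strand: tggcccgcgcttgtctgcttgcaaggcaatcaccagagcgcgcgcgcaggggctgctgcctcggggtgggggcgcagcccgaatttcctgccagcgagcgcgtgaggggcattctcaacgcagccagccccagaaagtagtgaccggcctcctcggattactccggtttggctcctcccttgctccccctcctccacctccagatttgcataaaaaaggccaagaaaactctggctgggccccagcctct
The *Dkk2* window held the SOX core read on the minus strand at -80, TATAAA at -32 and the GC box at -60 and -17, counted to the first base of the match from the start site. The *Sfrp2* window held none of the 7 sequences of letters. Among 32851 promoter windows of this length, 16.5% held the SOX core, 12.4% TATAAA and 32.7% the GC box, and the other motifs were in 9.59 to 14.0%. The SOX and TCF/LEF cores share 5 letters, but no match was counted for both. GC content was 55.6% for *Dkk2* with 7 CpG and 63.6% for *Sfrp2* with 16 CpG, beside medians of 52.4% and 6 over all windows. A match is only a run of letters, and 6 of the 9 members had a promoter in the table.

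*Dkk2* was the member with the largest gap between Vehicle and the other libraries in the Dkk family. Its stromal level was 75.4 CPM (71.7 to 79.3) in Matrigel-only, 4.37 CPM (3.56 to 5.30) in Vehicle and 85.2 CPM (80.7 to 89.9) in Palo. Vehicle stood apart from both others, which differed from each other by a log2 ratio of 0.18 (0.07 to 0.28). The log2 ratio was -4.11 (-4.41 to -3.82) for Vehicle over Matrigel-only, 17.3-fold lower, and 4.29 (4.00 to 4.59) for Palo over Vehicle, 19.5-fold higher. *Dkk2* UMIs were found in 12.8% of the thinned Matrigel-only cells (11.3 to 14.4%), 0.886% of Vehicle cells (0.452 to 1.56%) and 16.3% of Palo cells (14.2 to 18.6%). In cells below the stromal limit, with medians of 2950, 3208 and 4156 UMIs, the thinned share was 0.198%, 0.180% and 0.262%. The Vehicle stromal cells carried 103 *Dkk2* UMIs on 33 cells, and a single cell held 20 of them.

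*Frzb*, a soluble Wnt-binding relative of Frizzled, had the opposite order. Stromal cells held 0.748 CPM (15 UMIs) in Matrigel-only, 96.4 CPM (92.5 to 100, 2274 UMIs) in Vehicle and 0.253 CPM (4 UMIs) in Palo. The level was 128.8-fold higher in Vehicle than in Matrigel-only, a log2 ratio of 7.01 (6.28 to 7.85). The log2 ratio of Palo over Vehicle was -8.58 (-10.5 to -7.22). *Frzb* UMIs were found in 17.5% of thinned Vehicle cells (15.4 to 19.6%), 0.252% of Matrigel-only cells and 0.0671% of Palo cells. The difference between Palo and Matrigel-only, 4 against 15 UMIs, was within counting error, with a log2 ratio of -1.57 (-3.62 to 0.08).

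*Dkk3*, the divergent Dkk, was also higher in Vehicle, by a much smaller ratio. Its level was 32.5 CPM in Matrigel-only, 68.3 CPM in Vehicle and 37.9 CPM in Palo, so that Vehicle lay above both others. The log2 ratio was 1.07 (0.94 to 1.20) for Vehicle over Matrigel-only and -0.85 (-0.99 to -0.71) for Palo over Vehicle. The thinned shares followed the levels, with 8.23%, 17.2% and 10.3% of cells.

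*Sfrp2* and *Sfrp4*, which bind Wnt ligands, were lowest in Vehicle. *Sfrp2* stood at 455 CPM (446 to 464) in Matrigel-only, 256 CPM (250 to 263) in Vehicle and 694 CPM (682 to 708) in Palo, so that Palo was above both other libraries. The log2 ratio was -0.83 (-0.87 to -0.78) for Vehicle over Matrigel-only, 1.44 (1.39 to 1.48) for Palo over Vehicle and 0.61 (0.57 to 0.65) for Palo over Matrigel-only. *Sfrp2* was detected in 41.4%, 37.3% and 62.2% of thinned cells in the same order of libraries. *Sfrp4* was highest in Matrigel-only, at 451 CPM against 206 CPM in Vehicle and 369 CPM in Palo. Its log2 ratio was -1.13 (-1.18 to -1.08) for Vehicle over Matrigel-only and 0.84 (0.78 to 0.89) for Palo over Vehicle, with thinned shares of 58.0%, 26.0% and 47.9%.

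*Sfrp1* was highest in Matrigel-only and lowest in Palo. Its level was 458 CPM (449 to 468), 315 CPM (307 to 322) and 246 CPM (239 to 254) in Matrigel-only, Vehicle and Palo. The log2 ratio was -0.54 for Vehicle over Matrigel-only, -0.35 for Palo over Vehicle and -0.90 (-0.95 to -0.84) for Palo over Matrigel-only. The thinned share of cells, 30.5%, 41.1% and 28.0%, went against the order of the levels, so no order is read from it. Among thinned cells with a *Sfrp1* UMI, Matrigel-only cells held a mean of 4.96 of them, Vehicle cells 2.52 and Palo cells 2.94.

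The other 3 members were at or near 0 in each library. *Dkk1*, the best known Lrp5 and Lrp6 antagonist, had 2, 1 and 3 UMIs over all stromal cells of Matrigel-only, Vehicle and Palo. *Wif1* had 7, 3 and 0 UMIs, and *Sfrp5* had 0 in each library. A count of 0 was set at 3 UMIs, the one-sided limit it allows, which is 0.150 CPM in Matrigel-only, 0.127 CPM in Vehicle and 0.189 CPM in Palo.

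**Figure D1:**
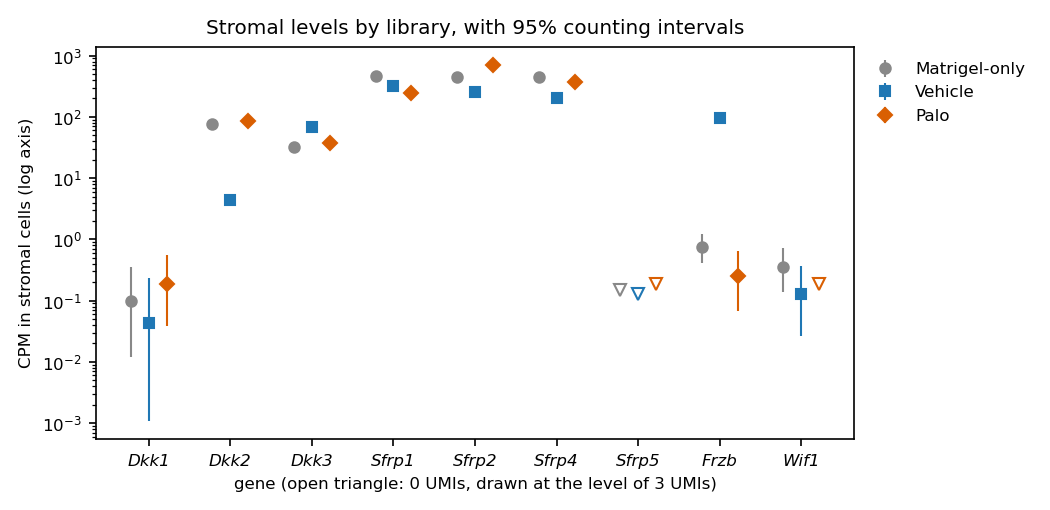
Level of each of the 9 members in stromal cells, in CPM on a log axis, with 1 point per library and bars for the exact Poisson 95% interval. Vehicle lies far below the others for Dkk2 (4.37 CPM against 75.4 and 85.2) and far above them for Frzb (96.4 CPM against 0.748 and 0.253).

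Of the 9 members, 6 had a mean of at least 5 CPM over the libraries, the level at which a gene entered the counts of genes differing at least 2-fold, among 10311 genes. Between Vehicle and Matrigel-only, *Dkk3* and *Frzb* were at least 2-fold higher in Vehicle, where 4.55% of all genes were, and *Dkk2* and *Sfrp4* were at least 2-fold lower, where 9.97% were. Between Palo and Vehicle, *Dkk2* and *Sfrp2* were at least 2-fold higher in Palo, as were 7.45% of all genes, and *Frzb* was lower, as were 4.6%. Between Palo and Matrigel-only, no member was at least 2-fold higher, beside 0.824% of all genes, and *Frzb*, on 4 and 15 UMIs, was lower, beside 2.21%. *Frzb* reached the mean of 5 CPM through Vehicle alone, so it is counted between Palo and Matrigel-only only because of its Vehicle level. Since the members were chosen by these values, nothing is read from the counts. The 3 comparisons share libraries, and the median log2 ratio over all 10311 genes was -0.04, 0.02 and -0.03.

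Most UMIs of the members came from stromal cells. Cells below the stromal limit held between 0.442% and 2.34% of the stromal level of *Dkk3*, *Sfrp1*, *Sfrp2* and *Sfrp4* in the 3 libraries. The 5 genes that define the stroma stood at 0.384% to 2.36%. Their ratio is kept low by the rule that chose the cells, so it is no yardstick for the members. *Dkk2* stood at 0.833% in Matrigel-only and 1.06% in Palo, and at 15.2% in Vehicle, where its stromal level was low and the other cells held 11 UMIs (0.663 CPM). *Frzb* in Vehicle stood at 2.19%, beside 2.54% for *Col2a1* and 1.80% for *Acan*, which are cartilage genes. Cells below the limit were not uniformly low. With 0.5 to 1% of UMIs from the stromal genes, *Sfrp1* stood at 216 CPM in Matrigel-only, 348 CPM in Vehicle and 17.2 CPM in Palo. In Vehicle these cells held 55 of the 122 *Sfrp1* UMIs found below the limit.

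Other cell types' markers differed between the stromal cells of the libraries. The 8 macrophage markers, all above the level of 3 UMIs in every library, summed to 855 CPM in Matrigel-only, 269 CPM in Vehicle and 733 CPM in Palo, lowest in Vehicle as were *Dkk2*, *Sfrp2* and *Sfrp4*. Macrophage-marked cells held 0.573, 0.577 and 0.655 CPM of *Dkk2*, 4.54, 3.88 and 3.86 CPM of *Sfrp2* and 4.20, 2.72 and 1.71 CPM of *Sfrp4*. With stromal cells carrying a UMI of the leukocyte gene *Ptprc* left out the *Dkk2* ratio of Vehicle over Matrigel-only was -4.38 on the log2 scale. The 4 pericyte and smooth muscle markers summed to 188, 908 and 332 CPM, of which *Acta2* made up 828 CPM in Vehicle, and their part in the results was not tested. Schwann cell markers summed to under 2 CPM in each library and keratinocyte markers to at most 1.02 CPM, with *Sox10* and *Krt5* at 0. Endothelial markers summed to 18.7, 3.56 and 12.4 CPM and adipocyte markers to 64.6, 13.6 and 2.08 CPM. Their part in the results was not tested either.

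Stromal cells were then divided by detection of *Pi16*, a gene of fibroblast progenitors, *Sox9*, a transcription factor of the cartilage lineage, and *Acan*, which encodes the cartilage proteoglycan aggrecan. In order, cells with *Acan* formed the first class, those with *Sox9* but no *Acan* the second, those with *Pi16* alone the next and the rest the last. Matrigel-only held 1, 493, 1012 and 579 cells in these classes, Vehicle 779, 391, 80 and 123, and Palo 4, 405, 312 and 463. The *Acan* class was 56.7% of Vehicle stromal cells and under 0.5% in the other libraries, so levels were compared between libraries in the other 3 classes. These classes are detection states, and a cell without a UMI of a gene may still express it.

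*Dkk2* was lower in Vehicle within each of the 3 classes. In *Sox9*-positive cells without *Acan* it stood at 71.4 CPM in Matrigel-only, 7.56 CPM in Vehicle and 78.3 CPM in Palo. In cells negative for all of the splitting genes the values were 123 CPM, 11.5 CPM and 115 CPM, a log2 ratio of -3.42 (-4.19 to -2.75) for Vehicle over Matrigel-only. In cells with *Pi16* alone they were 44.0, 14.6 and 42.0 CPM, a log2 ratio of -1.59 (-2.48 to -0.83) that rests on 14 Vehicle UMIs. Palo and Matrigel-only differed by 0.13 (-0.06 to 0.33), -0.10 (-0.25 to 0.05) and -0.07 (-0.36 to 0.22) on the log2 scale in the same classes, each within counting error. With class levels averaged over a common mix of classes, the log2 ratio was -2.77 for Vehicle over Matrigel-only and 2.75 for Palo over Vehicle, a smaller difference than with the mix as found.

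*Frzb* was concentrated in the *Acan* class. The Vehicle cells of that class held 158.7 CPM (152 to 165) and 2210 of the 2274 UMIs. *Sox9*-positive cells without *Acan* held 8.82 CPM (63 UMIs) in Vehicle, against 1.21 CPM in Matrigel-only (7 UMIs) and 0.327 CPM in Palo (2 UMIs). The remaining Vehicle classes held 1 and 0 UMIs. Over the common class mix, from which the *Acan* class is missing, the log2 ratio was 1.99 instead of 7.01 for Vehicle over Matrigel-only and -3.25 instead of -8.58 for Palo over Vehicle.

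The Sfrp genes differed between libraries in ways that depended on the class. *Sfrp1* in *Sox9*-positive cells without *Acan* stood at 938 CPM in Matrigel-only and at 392 and 368 CPM in Vehicle and Palo, while in cells with *Pi16* alone Vehicle was the highest, at 442 CPM against 218 and 131 CPM. That Vehicle level rests on 80 cells with 424 *Sfrp1* UMIs, and a single cell held 110 of them. *Sfrp2* in cells negative for all stood at 440, 244 and 713 CPM, and in *Sox9*-positive cells at 765, 345 and 833 CPM. Cells with *Pi16* alone held *Sfrp2* at 249 CPM in Matrigel-only and at 401 and 410 CPM under Vehicle and Palo, which differed within counting error (log2 ratio 0.03, -0.13 to 0.20).

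*Sfrp4* was highest in *Pi16* cells of every library, at 557, 839 and 436 CPM. In cells negative for all it was 343 CPM in Matrigel-only, 128 CPM in Vehicle and 330 CPM in Palo, and in *Sox9*-positive cells it was 410, 280 and 376 CPM. Over the common class mix its log2 ratio of Vehicle over Matrigel-only was -0.02 instead of -1.13, and that of Palo over Vehicle was -0.19 instead of 0.84. Both averages join class ratios of opposite sign. Vehicle over Matrigel-only was 0.59 in *Pi16* cells, -0.55 in *Sox9*-positive cells and -1.43 in cells negative for all. Palo over Vehicle was -0.95, 0.42 and 1.37 in the same classes. *Dkk3* over the common class mix gave 0.36 instead of 1.07 for Vehicle over Matrigel-only. Its Vehicle level was 78.2 CPM in the *Acan* class, 58.8 CPM in *Sox9*-positive cells, 54.8 CPM in cells negative for all and 17.7 CPM (17 UMIs) in *Pi16* cells. *Sfrp2* gave 0.94 instead of 1.44 for Palo over Vehicle.

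**Figure D2:**
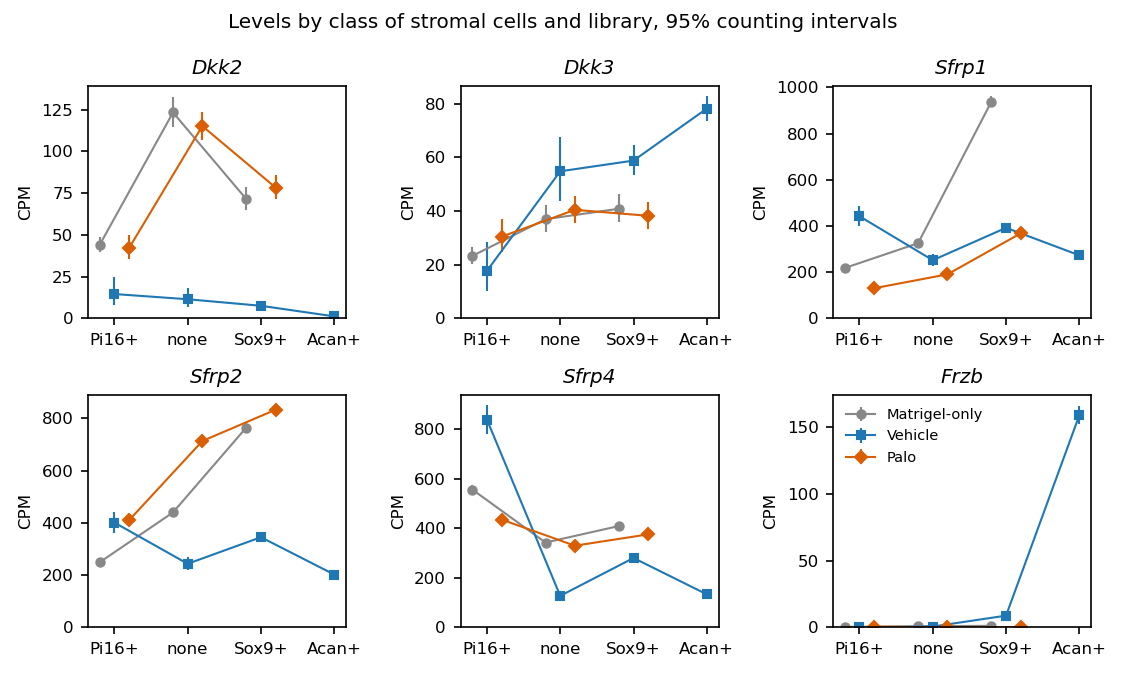
Level of 6 members in CPM by class of stromal cell, with 1 line per library and bars for 95% counting intervals; Pi16+ are cells with Pi16 alone, none are cells with no UMI of the splitting genes, Sox9+ are cells without Acan, and classes under 20 cells are left out. Dkk2 in Vehicle stays between 1.22 and 14.6 CPM in each class, Frzb reaches 158.7 CPM in the Acan class, and Sfrp1 in Matrigel-only reaches 938 CPM in the Sox9 class.

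Splitting each library by *Pi16* alone gave 3 members a direction in Vehicle opposite to that in both other libraries. *Dkk2* was lower in *Pi16*-positive than in *Pi16*-negative cells of Matrigel-only, at 47.9 against 102 CPM, and of Palo, where positive cells held 43.6 CPM and the log2 ratio was -1.20. In Vehicle it was higher in *Pi16*-positive cells, at 20.6 against 2.46 CPM, a log2 ratio of 3.06 (2.48 to 3.65) on 51 and 52 UMIs. That ratio was 2.38, on 30 and 50 UMIs, with *Ptprc* cells left out and 3.91 with *Pi16* detected after thinning. A single Vehicle cell with *Sox9* and no *Acan* held 20 of the 103 *Dkk2* UMIs. Its *Pi16* state is not given here, and the interval does not cover such clustering of UMIs in a cell. *Sfrp1* had log2 ratios of -0.76, 1.05 and -0.51 for this split in Matrigel-only, Vehicle and Palo. *Sfrp2* had -0.92, 0.92 and -0.79, so both were lower in *Pi16*-positive cells except in Vehicle. *Sfrp4* was higher in *Pi16*-positive cells of all 3 libraries, by 0.63, 1.71 and 0.28.

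In Vehicle, the *Pi16*-positive cells numbered 167 against 1206 negative ones, most of which had *Sox9* or *Acan* UMIs, and 76 of the 167 had a *Sox9* UMI and 35 an *Acan* UMI. Among Vehicle cells without *Sox9* or *Acan* UMIs, *Dkk2* stood at 14.6 CPM (7.98 to 24.5) with *Pi16* and 11.5 CPM (6.80 to 18.1) without, so the intervals overlapped. At least 2-fold higher in *Pi16*-positive Vehicle cells were *Dkk2*, *Sfrp1* and *Sfrp4*, beside 7.92% of all genes, and lower were *Dkk3* and *Frzb*, beside 4.34%. *Sfrp1* was near the limit, at a log2 ratio of 1.05 (0.97 to 1.13), and a single cell held 110 of its 1451 UMIs in *Pi16*-positive cells. Over the alternatives that ratio lay between 1.14 and 1.24. In Matrigel-only *Dkk2* was at least 2-fold lower, beside 4.69% of all genes, and none was higher, beside 3.5%. *Frzb* also stood past 2-fold there, on 4 and 11 UMIs, at a log2 ratio of -1.41 (-3.52 to 0.35), within counting error. In Palo *Dkk2* was at least 2-fold lower, beside 3.63%, and none was higher, beside 3.69%.

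For the split by *Sox9*, *Sfrp1* was higher in positive cells, with 937 against 263 CPM in Matrigel-only, 322 against 278 CPM in Vehicle and 365 against 170 CPM in Palo. Its log2 ratio was 1.83 (1.77 to 1.89) in the first of these, against 0.21 in Vehicle and 1.10 in Palo. *Sfrp2* had log2 ratios of 1.21, -0.12 and 0.44, negative in Vehicle and positive in the others. *Sfrp4* was lower in *Sox9*-positive Vehicle cells, at 173 against 378 CPM, and had log2 ratios of -0.19 in Matrigel-only and 0.03 in Palo. *Sfrp1* and *Sfrp2* were at least 2-fold higher in positive Matrigel-only cells, beside 2.45% of all genes, and none was lower, beside 1.8%. *Frzb* also stood past 2-fold there, on 7 and 8 UMIs, at a log2 ratio of 1.10 (-0.59 to 2.76), within counting error. In Vehicle *Frzb* was higher, beside 2.19%, and *Dkk2* and *Sfrp4* were lower, beside 4.64%. In Palo *Sfrp1* was higher, beside 0.514%, and none was lower, beside 1.05%.

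**Figure D3:**
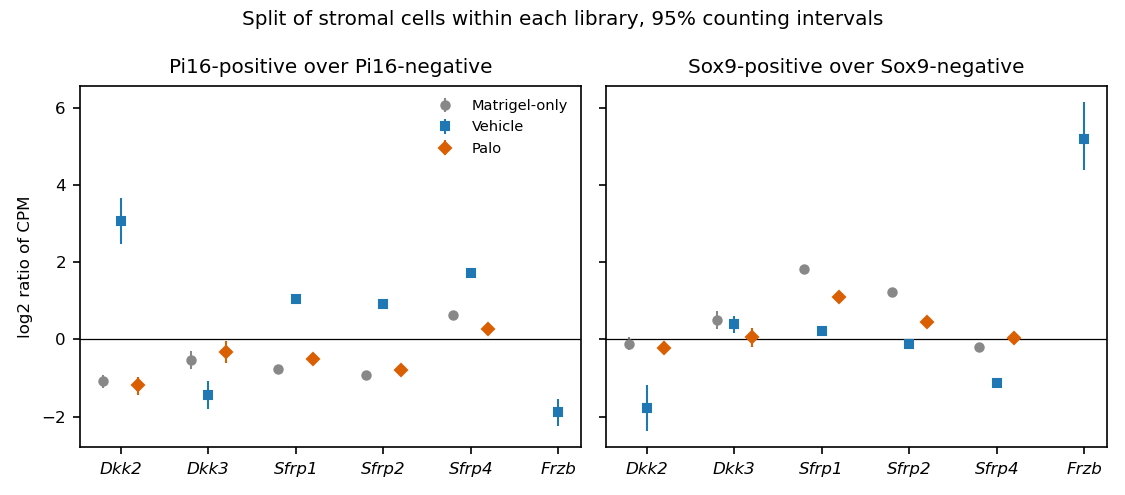
Log2 ratio of the CPM in cells with a UMI of the splitting gene over cells without, for Pi16 and Sox9, with 1 point per library and bars for conditional binomial 95% intervals; Frzb is drawn for Vehicle only, because the other libraries held 15 and 4 UMIs. For Pi16, Vehicle lies above 0 for Dkk2 (3.06), Sfrp1 (1.05) and Sfrp2 (0.92), where the other libraries lie below it.

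Among Vehicle stromal cells, several members followed the *Acan* level. *Frzb* stood at 6.62 CPM in the 594 cells without an *Acan* UMI and at 22.6, 147 and 313 CPM in 3 ranges of near equal cell number, from the lowest to the highest *Acan* share, of the 779 *Acan*-positive cells. *Sfrp4* went the other way, with 311, 228, 119 and 48.3 CPM. *Sfrp2* had 334, 299, 182 and 119 CPM, and *Sfrp1* had 374, 328, 282 and 207 CPM. *Dkk3* was highest in the lowest and middle ranges, at 84.2 and 88.8 CPM, against 54.1 CPM without *Acan* and 61.7 CPM in the highest range.

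*Dkk2* stood at 8.90 CPM without *Acan* and at 2.05, 0.451 and 1.08 CPM in the ranges, on 86, 10, 2 and 5 UMIs. Over the same ranges *Col2a1*, the type II collagen gene, stood at 24.2, 212, 1675 and 6214 CPM, and median depth lay between 16423 and 18341 UMIs. Between *Acan*-positive and *Acan*-negative Vehicle cells, *Frzb* was at least 2-fold higher in the positive ones (log2 ratio 4.58), beside 2.1% of all genes, and *Dkk2* (-2.87) and *Sfrp4* (-1.22) were lower, beside 5.1%. The ranges divide a level measured in single cells and are not cell types.

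**Figure D4:**
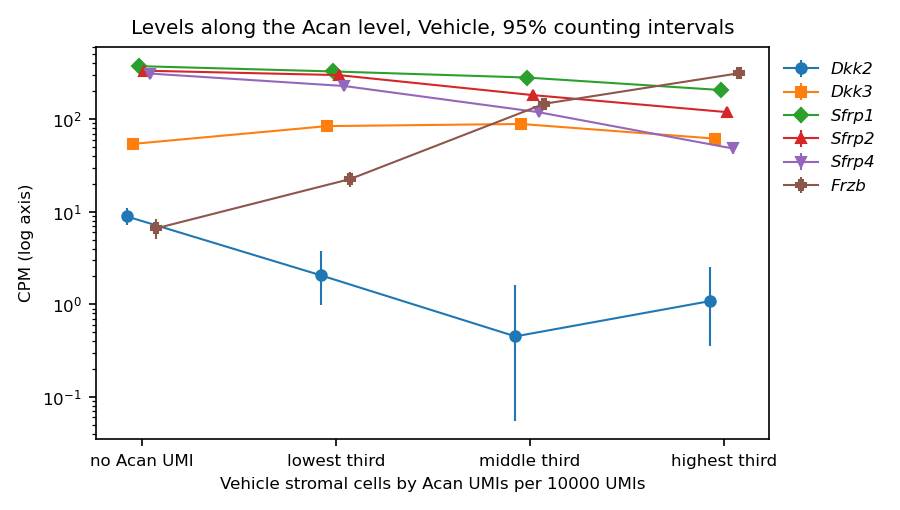
Level of 6 members in CPM on a log axis in Vehicle stromal cells without an Acan UMI and in 3 ranges of the Acan-positive cells, with bars for exact Poisson 95% intervals. Frzb goes from 6.62 to 313 CPM and Sfrp4 from 311 to 48.3 CPM.

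The Sfrp genes were unevenly spread over cells. After thinning to 3000 UMIs, 50% of *Sfrp1* UMIs were held by 5.95% of Matrigel-only, 7.52% of Vehicle and 5.92% of Palo cells. For *Sfrp2* that fraction was 7.86%, 7.67% and 13.7%, highest in Palo. The fraction also depends on how many UMIs a gene has, with 2361 thinned *Sfrp2* UMIs on 1131 Palo cells and 974 on 1304 Vehicle cells. Levels were not made equal, so differences between libraries may in part restate the levels. For *Sfrp4* it was 12.5%, 5.06% and 10.8%, and for *Frzb* in Vehicle 4.37%.

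**Figure D5:**
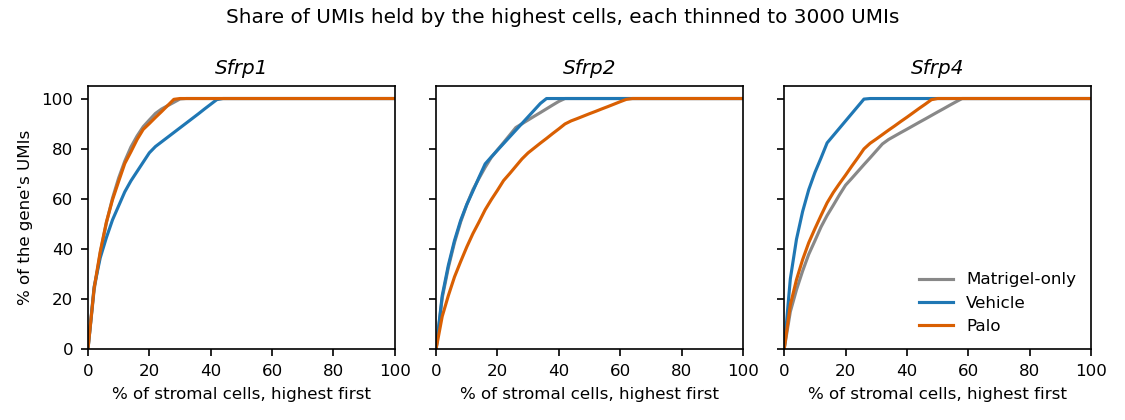
Cumulative percent of a gene's UMIs against the percent of stromal cells, taken from the highest cell down, for Sfrp1, Sfrp2 and Sfrp4, with every cell thinned to 3000 UMIs and 1 line per library. The Sfrp2 line of Palo lies below the others (13.7% of cells hold 50% of its UMIs), and the Sfrp4 line of Vehicle lies above them (5.06%).

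Within a library, some pairs of members were higher in the same cells and others went apart. In Matrigel-only, the 770 cells with a *Sfrp1* UMI held *Sfrp2* at 906 CPM and the other 1315 at 177 CPM, a log2 ratio of 2.35 (2.28 to 2.42). The same ratio was 1.03 in Vehicle and 1.09 in Palo, so that *Sfrp2* was higher beside *Sfrp1* in each library. *Dkk2* and *Sfrp1* went apart, with *Sfrp1* at 169 CPM in Matrigel-only cells that had a *Dkk2* UMI and 603 CPM in those without. In Palo the values were 171 and 299 CPM, and in Vehicle, with 33 *Dkk2*-positive cells, 289 and 315 CPM, within counting error. The 462 Vehicle cells with a *Frzb* UMI held *Dkk2* at 0.465 CPM (4 UMIs) against 6.61 CPM, *Sfrp2* at 141 against 323 CPM and *Sfrp4* at 107 against 263 CPM. They held *Sfrp1* at 246 against 354 CPM. Taken the other way, Vehicle cells with a *Sfrp1* UMI held *Frzb* at 114 against 52.8 CPM. The direction for that pair therefore depended on which gene was detected. Depth moved with detection, with median UMIs of 12224 against 8275 for *Dkk2* in Matrigel-only and 17990 against 16425 for *Frzb* in Vehicle.

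The genes most like each member were taken from 6411 genes with a mean of at least 20 CPM, by Pearson correlation of log2(CPM + 5) over 10 points, the classes of each library with at least 20 cells. The points share libraries and depth, and the correlations are descriptions. *Frzb* was closest to *Col9a2* (r = 0.99), *Col9a1* (0.98) and *Hapln1* (0.98), genes of cartilage collagen and link protein, which were at or under 0.758 CPM in Matrigel-only and Palo stroma. These values rest largely on 1 point, the Vehicle *Acan* class, with *Frzb* at 158.7 CPM. The next highest point, the Vehicle *Sox9* class, stood at 8.82 CPM, and the rest lay under the added 5 CPM. *Dkk2* was closest to *Slc30a4* (0.98), *Asap1* (0.97) and *Oaf* (0.97). *Sfrp4* was closest to *Vwa5a* (0.98), *Gm13305* (0.97) and *Lgi2* (0.97). *Sfrp1* was closest to *Il1r1* (0.91), the interleukin 1 receptor, *Osmr* (0.90), the oncostatin M receptor, and *Mycbp2* (0.89), and *Sfrp2* to *Adgrl2* (0.96), *Cdk14* (0.93) and *Ddx5* (0.93). *Dkk3* was closest to *Zrsr2*, *Cdk4* and *Srp72*, all at 0.97.

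Other genes of the pathway were counted from lists of 68 genes. As for the members, the share of all genes past 2-fold was 4.55% higher and 9.97% lower for Vehicle over Matrigel-only, 7.45% and 4.6% for Palo over Vehicle, and 0.824% and 2.21% for Palo over Matrigel-only. Of 19 Wnt ligands, 6 were tested, of which 3 were at least 2-fold lower in Vehicle than in Matrigel-only (beside 9.97%) and none higher. These were *Wnt2*, at 122 CPM in Matrigel-only, 14.8 CPM in Vehicle and 89.4 CPM in Palo, *Wnt11*, at 13.2, 1.95 and 7.64 CPM, and *Wnt10b*, at 13.0, 3.65 and 6.00 CPM. In Palo over Vehicle 4 were higher (beside 7.45%), namely *Wnt2*, *Wnt11*, *Wnt16* (4.87 and 15.3 CPM) and *Wnt9a* (9.75 and 20.2 CPM), and *Wnt5a*, which mostly acts outside the canonical branch, was lower (61.0 and 30.3 CPM). Between Palo and Matrigel-only *Wnt10b* alone was lower. Over the common class mix 2 ligands were lower in Vehicle than in Matrigel-only (*Wnt2* and *Wnt10b*, beside 3.71% of all genes) and 1 higher (*Wnt5a*, beside 2.27%), and the ratio of *Wnt2* was -1.05 instead of -3.04 on the log2 scale. In Palo over Vehicle the same mix left 2 higher (*Wnt2* and *Wnt16*, beside 2.68%) and 1 lower (*Wnt5a*, beside 3.09%), with *Wnt11* at 0.36 and *Wnt9a* at 0.25. The median log2 ratio of the tested ligands was -1.32 for Vehicle over Matrigel-only and 1.35 for Palo over Vehicle, against -0.04 and 0.02 over all genes. Over the common class mix these medians were -0.77 and 0.60, against -0.0487 and 0.000528 over all genes.

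Of 18 receptors and co-receptors, 14 were tested. The Frizzled receptor *Fzd9* was, like *Frzb*, high in Vehicle and near 0 elsewhere, with 0.150 CPM in Matrigel-only (3 UMIs), 32.2 CPM in Vehicle and 0.316 CPM in Palo (5 UMIs), and *Fzd5* was also highest in Vehicle, at 12.9, 30.4 and 14.3 CPM. *Fzd4* (75.6, 15.2 and 26.3 CPM) and *Fzd10* (22.6, 2.76 and 7.52 CPM) were at least 2-fold lower in Vehicle than in Matrigel-only, and also in Palo than in Matrigel-only. *Fzd10* was at least 2-fold higher in Palo than in Vehicle, *Fzd9* and *Fzd5* were lower, and *Fzd9*, on 5 against 3 UMIs, was past 2-fold in Palo over Matrigel-only with an interval of -1.28 to 3.76 around its log2 ratio of 1.08. Over the common class mix *Fzd9* stood at 3.29 for Vehicle over Matrigel-only, while *Fzd4* (-0.81), *Fzd5* (0.81) and *Fzd10* (-0.59) were under 2-fold. In Palo over Vehicle *Fzd9* stood at -2.27, *Fzd5* (-0.85) was under 2-fold and *Fzd10* changed sign (-0.46). The median log2 ratio of the list was 0.04 for Vehicle over Matrigel-only. The Dkk co-receptors *Lrp5* (27.7, 27.4 and 17.2 CPM), *Lrp6* (83.0, 63.5 and 69.9 CPM) and *Kremen1* (64.1, 90.5 and 70.1 CPM) stayed under 2-fold in each comparison.

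Of 7 R-spondins and their receptors, 3 were tested, and *Rspo3*, a Wnt agonist, was at least 2-fold higher in Vehicle than in Matrigel-only, at 11.2 against 3.14 CPM. Of 10 feedback and target genes, 3 were tested. *Axin2*, a widely used readout of canonical signalling, stood at 17.3 CPM in Matrigel-only, 4.71 CPM in Vehicle and 11.9 CPM in Palo, with a log2 ratio of -1.87 (-2.20 to -1.56) for Vehicle over Matrigel-only and 1.34 for Palo over Vehicle. Over the common class mix those ratios were -0.89 and 0.76, under 2-fold. *Nkd2*, an inhibitor acting through Dishevelled, had the opposite order, at 7.73, 32.6 and 13.7 CPM. *Nkd1*, the last of the 3, stood at 11.8, 11.4 and 10.0 CPM. The median log2 ratio of the 3 was -0.06 for Vehicle over Matrigel-only. Among the genes too low to be tested, *Tcf7* (6, 39 and 14 UMIs), *Rnf43* (1, 29 and 2) and *Notum* (6, 29 and 5) had most UMIs in Vehicle. *Apcdd1* (39, 20 and 27) had fewest there. The list thus had no common direction, and none is read from *Axin2* alone. All 9 intracellular genes were tested, and the transcription factors *Tcf7l2* (57.6, 14.6 and 48.8 CPM) and *Tcf7l1* (45.8, 20.7 and 30.8 CPM) were at least 2-fold lower in Vehicle than in Matrigel-only. *Tcf7l2* was at least 2-fold higher in Palo than in Vehicle, and over the common class mix its ratios were -1.43 for Vehicle over Matrigel-only and 1.24 for Palo over Vehicle, with *Tcf7l1* at -0.81 for the first. *Rspo3* stood at 0.86 in the same average and *Nkd2* at 1.09, both for Vehicle over Matrigel-only. The other 5 secreted inhibitors listed (*Dkk4*, *Dkkl1*, *Sost*, *Sostdc1* and *Cer1*) had at most 9 UMIs in a library and none was tested.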

How the data were processed

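Single cells of day 5 masses were measured as 1 droplet library per condition. The authors deposited, per barcode and gene, the count of UMIs without normalization; the submitters' processing notes name Cell Ranger 3.0.2, Seurat 3 and mm10, and whether strand was used in counting is not given in the sources used here. Cells with 200 to 6000 genes and at most 5% mitochondrial UMIs were kept, leaving 8728, 5478 and 7297 cells of 9249, 6065 and 7905 barcodes in Matrigel-only, Vehicle and Palo. Total UMIs were 44252421, 46317250 and 46901673. No doublet caller was run; stromal cells with a *Ptprc* UMI (8.52 to 8.87% per library) were left out in an alternative.

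The 9 members, the lists and the rules were chosen with earlier results of these data known. Named genes were all members, listed pathway genes past 2-fold (at most 6 per list and comparison) and, per member, the 3 genes with the most similar pattern. The co-receptors, other inhibitors and some further feedback genes are named besides, after their values were seen. UMIs were summed per library and class. CPM carry exact Poisson, shares exact binomial and log2 ratios conditional binomial 95% intervals, and with 1 library per condition no test was run. A gene counted as 2-fold different when its mean was at least 5 CPM, with a count of 0 set at 3 UMIs and never called higher. Splits needed 20 cells on each side. Levels of different genes were not compared. Code was tested on simulated data. Scripts ran in Python 3.11.15 with scipy 1.17.1, numpy 2.4.6, matplotlib 3.10.9 and pandas 2.3.3, and 17 alternatives were tried, with 1 more, the common class mix for pathway genes, chosen after seeing the data. Protein sequences were not used here.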

Additional observations from a re-analysis of the deposited data

Results flagged for a closer look

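In the split of stromal cells by *Pi16*, 3 members had opposite directions in Vehicle and in the other libraries, a difference that was not tested because each condition had 1 library. The log2 ratio of *Pi16*-positive over *Pi16*-negative cells for *Dkk2* was 3.06 in Vehicle, against -1.09 in Matrigel-only and -1.20 in Palo. Over the alternatives the Vehicle value lay between 2.38 and 3.91, and a single cell held 20 of the 103 *Dkk2* UMIs of Vehicle stromal cells. For *Sfrp1* it was 1.05 in Vehicle, against -0.76 and -0.51, and for *Sfrp2* it was 0.92, against -0.92 and -0.79. Most *Pi16*-negative Vehicle cells had *Sox9* or *Acan* UMIs. Among Vehicle cells without either, *Dkk2* stood at 14.6 CPM with *Pi16* and 11.5 CPM without, on 14 and 18 UMIs. In such cells of Matrigel-only the levels were 44.0 and 123 CPM, and of Palo 42.0 and 115 CPM. The same Vehicle cells held *Sfrp1* at 442 and 252 CPM and *Sfrp2* at 401 and 244 CPM. In the split by *Sox9*, *Sfrp2* had a log2 ratio of -0.12 in Vehicle, against 1.21 in Matrigel-only and 0.44 in Palo, and that difference was not tested either.

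In Vehicle cells below the stromal limit, which the comparisons of stromal cells do not use, *Frzb* stood at 2.11 CPM (1.47 to 2.93, 35 UMIs), above the 0.0449 CPM (1 UMI) of the same cells in Matrigel-only. A single cell held 8 of these 35 UMIs. The 52 Vehicle cells just below the limit, with 0.5 to 1% of UMIs from the stromal genes, held 21 of the 35.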

How the results depend on the processing

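Ratios, counts and shares of the members and pattern correlations were recomputed under other settings of the cells, the scaling, the filters and the splits. Pathway genes were recomputed only over the common class mix, a choice made after seeing the data. Ratios between libraries within a class, co-detection, *Acan* ranges and concentration were recomputed under none of the settings. No member at least 2-fold different between libraries changed direction, while under a common class mix *Dkk2* in Palo over Matrigel-only stood at -0.02 and *Sfrp4* in Palo over Vehicle at -0.19 (log2). Averaging class levels over a common class mix left 1 member at least 2-fold higher (*Frzb*, beside 2.27% of all genes) and 1 lower (*Dkk2*, beside 3.71%) in Vehicle over Matrigel-only, 1 higher in Palo over Vehicle (*Dkk2*, beside 2.68%) and 2 lower in Palo over Matrigel-only (*Sfrp1* and *Frzb*, beside 1.62%). The *Acan* class has no counterpart outside Vehicle, so this average leaves it out. With no limits on genes or mitochondrial UMIs, 1 member (*Frzb*) was at least 2-fold higher in Vehicle over Matrigel-only, beside 4.39% of all genes, since *Dkk3* stood at 0.98. With the splitting gene detected after thinning to 3000 UMIs, the members at least 2-fold lower in *Pi16*-positive cells were 4 in Matrigel-only (beside 6.47% of all genes) and 2 in Palo (beside 6.30%), 1 was lower in *Sox9*-positive Vehicle cells (beside 3.77%) and 0 were higher in *Sox9*-positive Palo cells (beside 0.766%). With positive cells of at least 2 UMIs, 4 were lower in *Pi16*-positive cells in Matrigel-only (beside 7.58%) and 3 in Palo (beside 7.12%). The other 97 counts of members stayed within 1.5 times. Between libraries, 34 ratios of members moved past their counting interval and 164 did not, and *Dkk3* in Palo over Vehicle came to -0.24 instead of -0.85. Among shares of cells, 31 moved and 5 did not. Of the ratios between split cells, 48 moved past their counting interval and 76 did not, and for *Pi16* in Vehicle *Frzb* reached -4.60 instead of -1.88, while *Sfrp1* in Palo reached -1.39 instead of -0.51. Of the ratios of pathway genes past 2-fold, 23 moved, 3 did not and that of *Fzd10* in Palo over Vehicle turned from 1.45 to -0.46. Shares of cells depend on depth, and without thinning *Dkk2* was found in 24.7%, 2.40% and 34.9% of Matrigel-only, Vehicle and Palo cells and *Frzb* in 33.6% of Vehicle cells. No paired analysis was possible because each condition had 1 library and no result came from a test, and leaving out a replicate was not possible for the same reason. Levels of the members with few UMIs (*Dkk1*, *Sfrp5*, *Wif1*, and *Frzb* outside Vehicle) are limited by depth. *Frzb* enters the counts of members outside Vehicle only because it passed the mean of 5 CPM through Vehicle.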
